A study of Homo sapiens with 9 samples.

Results

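The genes described are 51 human genes for lysosomal hydrolases, their cofactors and sorting machinery, and lysosomal membrane proteins, chosen by symbol from a list without proton pump or autophagy genes. All 51 were found among the 58735 genes of the tables, and all 51 were among the 18088 genes with enough counts to test. Their RNA was measured by sequencing in HEK293T cells, an established line derived from embryonic kidney that expresses a viral large T antigen. There were 3 groups of 3 libraries. SUDS3 knockdown and PHF12 knockdown cells received an siRNA against SUDS3 or against PHF12, and control cells received a negative control siRNA, each at 10 nM for 36 h. The labels name a single siRNA per target. Whether the replicates came from separate cultures is not stated, so p-values measure only the spread between these libraries, which may be technical. SUDS3 and PHF12 both belong to SIN3 complexes, corepressors that remove acetyl groups from histones.

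Lysosomes break down proteins, glycans, glycolipids and lipids with acid hydrolases. Most soluble hydrolases are made in the endoplasmic reticulum, receive a mannose 6-phosphate tag in the Golgi through the GNPTAB/GNPTG phosphotransferase, and are carried to endosomes by the receptors M6PR and IGF2R. Membrane proteins hold the limiting membrane together and export the products. Many of these genes carry an E-box, the CLEAR element, in the promoter, which the MiT/TFE factors TFEB, TFE3 and MITF bind.

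Library totals ran between 37962926 and 50946148 counts, with 4.98% to 5.67% of counts on mitochondrial genes. Levels are CPM, counts scaled by the TMM method to a common library size, and library values are given in the order of replicates 1, 2 and 3. SUDS3 had 21.1, 22.3 and 22.9 CPM in SUDS3 knockdown, 81.4, 80.1 and 81.5 CPM in PHF12 knockdown and 108, 114 and 112 CPM in control libraries. PHF12 had 59.5, 62.0 and 62.9 CPM in SUDS3 knockdown, 27.9, 24.5 and 28.3 CPM in PHF12 knockdown and 50.3, 50.5 and 48.8 CPM in control libraries. Each target was therefore lowest in all 3 libraries of its own knockdown, with 19.9% of the control level left for SUDS3 and 53.9% left for PHF12. Each also changed in the other knockdown. SUDS3 fell to 72.9% of control in PHF12 knockdown, and PHF12 rose to 123% in SUDS3 knockdown (edgeR adjusted p = 6.83e-10 and 7.19e-05). All 9 markers of HEK293T cells were detected, the lowest being PAX2 at 0.944 to 2.32 CPM (marker levels are without TMM scaling). Of 11 markers of other cell types, 3 were at 0 in every library (PTPRC, UMOD and AQP2) and 8, those 3 included, stayed under 1 CPM. The others were COL1A1, COL3A1 at 2.21 to 3.85 CPM and CD14 at 0.692 to 1.74 CPM, a range that overlaps that of PAX2. The summed level of those 11 was 23.8 to 27.2 CPM in SUDS3 knockdown, 21.0 to 23.2 CPM in PHF12 knockdown and 14.6 to 16.2 CPM in control libraries, mostly from the fibroblast collagen COL1A1, and its part in the results was not tested.

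In SUDS3 knockdown, 29 of the 51 lysosomal genes rose, 11 fell and 11 did not pass the test (edgeR quasi-likelihood test, adjusted p under 0.05 over all genes tested). Of all genes tested, 19.6% rose and 19.2% fell in the same comparison, against 56.9% and 21.6% of the lysosomal genes. Their median log2 fold change was 0.17, beside -0.02 for all genes tested. Under upper-quartile scaling 26 rose and 13 fell, so that 66.7% of the calls were rises against 72.5% under TMM, and over all genes 44.2% against 50.5%. The changes were small, and the only ones beyond 2-fold were in PHF12 knockdown, for NEU1 and CTSC, and in SUDS3 knockdown, for ARSB. In bulk RNA, fewer cells of a type and less RNA per cell cannot be told apart. In PHF12 knockdown, 11 of the 51 rose, 13 fell and 27 did not pass, beside 14.8% of all genes risen and 17.1% fallen. The members' shares there were 21.6% risen and 25.5% fallen, with a median log2 fold change of 0.02 beside 0.00 for all genes. Under upper-quartile scaling 15 rose and 11 fell in PHF12 knockdown, so that 57.7% of the calls were rises, against 45.8% under TMM. Over all genes that share was 56.9% under upper-quartile scaling and 46.4% under TMM. With counts divided by 4, which left 14548 genes to test, 29 members rose and 12 fell in SUDS3 knockdown, beside 3626 and 3560 of all genes. In PHF12 knockdown 13 members rose and 13 fell with that setting, beside 2966 and 3152 of all genes. The shares over all genes therefore depend on how many low-count genes are tested. Both comparisons use the same 3 control libraries. Summed over the 51 genes, the level was 3727, 3700 and 3654 CPM in SUDS3 knockdown, 3596, 3537 and 3563 CPM in PHF12 knockdown and 3520, 3449 and 3348 CPM in control libraries. Under TMM scaling all SUDS3 knockdown sums lay above all others, and all PHF12 knockdown sums lay above the control sums. Sums were not made under upper-quartile scaling. That scaling moved the median log2 difference of SUDS3 knockdown from PHF12 knockdown over all genes from -0.0086 to -0.0752. The order of the 2 knockdowns in these sums may therefore depend on the scaling.

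**Figure D1:**
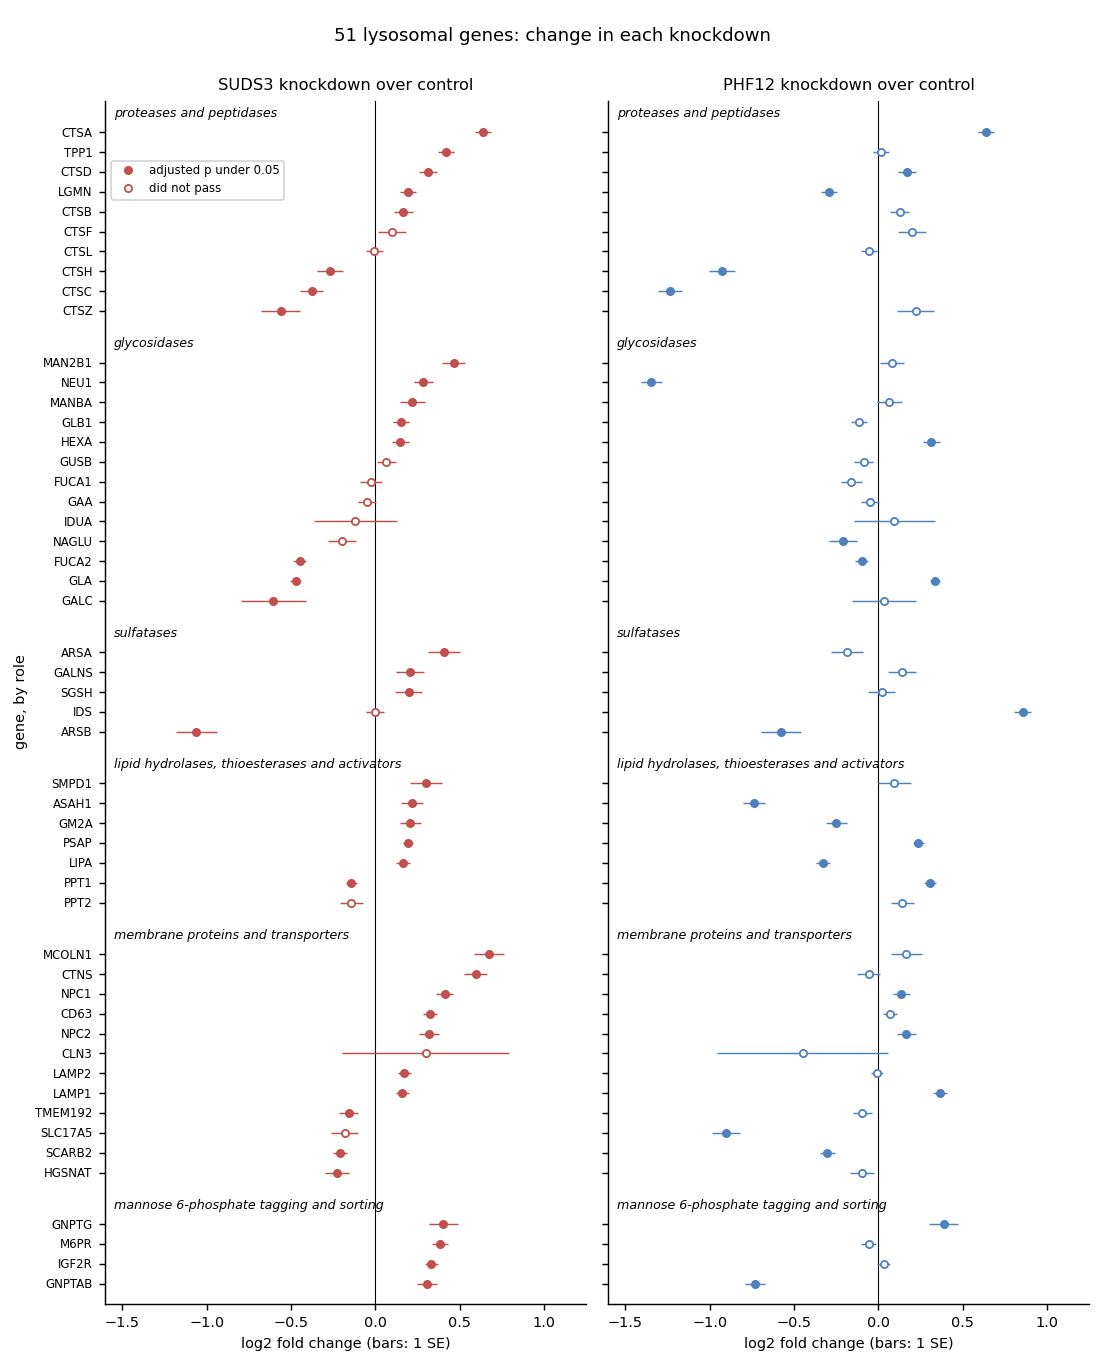
Log2 fold change of each of the 51 genes over control (x axis) in SUDS3 knockdown (left) and PHF12 knockdown (right), with genes grouped by role down the page and ordered within a role by the SUDS3 knockdown value. Filled points passed an adjusted p of 0.05, open points did not, and bars are 1 SE; 29 filled points on the left lie right of 0, and 11 do on the right.

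The enzymes were present at very different levels. Per kilobase of exon, the mean level in SUDS3 knockdown, PHF12 knockdown and control libraries was 80.5, 141 and 112 CPM for GLA, and 122, 126 and 107 CPM for PSAP. CD63, a tetraspanin of late endosomes, had 83.8, 70.3 and 66.9 CPM per kilobase in the same order of groups. At the low end, CLN3 had 0.0942, 0.0558 and 0.0769 CPM per kilobase, and IDUA and GALC were under 1 CPM per kilobase in all 3 groups. The sugar hydrolase GLA and the saposin precursor PSAP were thus the most abundant of the list per length in control cells, and CLN3, IDUA and GALC the least.

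**Figure D2:**
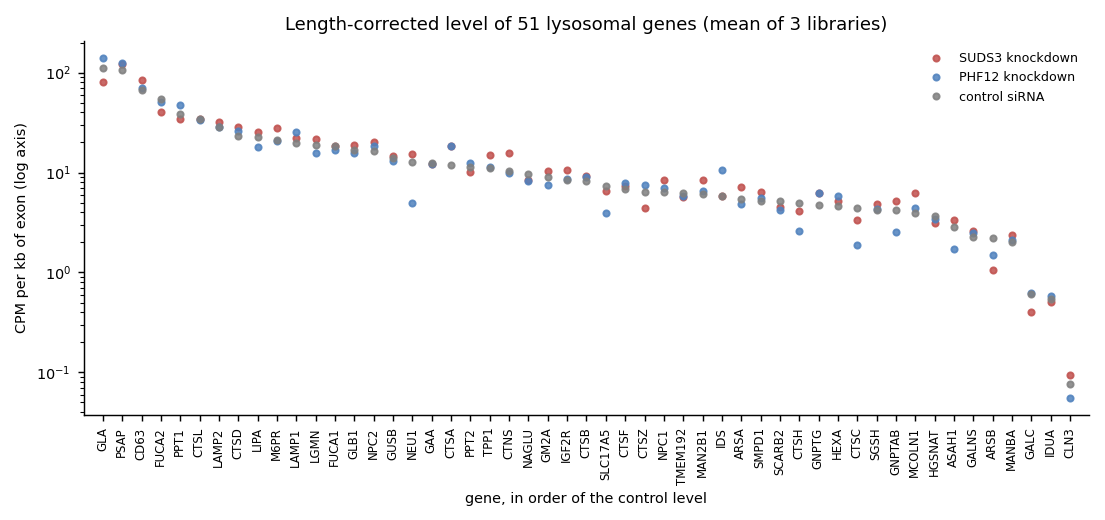
Mean CPM per kilobase of exon over 3 libraries (y axis, log scale) for each of the 51 genes, in order of the control level, with SUDS3 knockdown in red, PHF12 knockdown in blue and control in grey. GLA and PSAP stand highest in control libraries at 112 and 107, and CLN3 lowest at 0.0769.

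Promoter windows from RefSeq (250 bases before to 50 after the start, build GRCh38.p14) were matched by symbol for 40 of the 51 genes, and the E-box was searched on both strands. The core CACGTG was in 14 of the 40 (35%), against 12.5% of the tested protein-coding genes and 8.77% of all genes with a window. TCACGTG, which contains the core, was in 13 of the 40 (32.5%), against 7.08% and 4.49%. TCACGTGA, which contains both shorter motifs, was in 8 of the 40 (20%), against 2.17% and 1.18%. These 8 were CTSA, GAA, GALNS, LAMP1, MCOLN1, CLN3, GNPTG and IGF2R. The bases before the start are shown for MCOLN1, LAMP1 and IGF2R, which rose in SUDS3 knockdown, and for GAA, which did not pass in either knockdown. For CTSA, whose window lies in an exon of longer annotated transcripts, only the matched stretch is shown. Capitals mark TCACGTG on either strand, with the closing A where it makes the longest motif.
MCOLN1 (chr19:7522374-7522623, + strand): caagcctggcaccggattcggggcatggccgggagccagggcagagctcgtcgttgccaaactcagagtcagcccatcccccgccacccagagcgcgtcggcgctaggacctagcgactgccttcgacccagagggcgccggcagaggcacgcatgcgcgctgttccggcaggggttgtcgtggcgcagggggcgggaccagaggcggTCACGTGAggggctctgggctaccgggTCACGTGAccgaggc
LAMP1 (chr13:113296989-113297238, + strand): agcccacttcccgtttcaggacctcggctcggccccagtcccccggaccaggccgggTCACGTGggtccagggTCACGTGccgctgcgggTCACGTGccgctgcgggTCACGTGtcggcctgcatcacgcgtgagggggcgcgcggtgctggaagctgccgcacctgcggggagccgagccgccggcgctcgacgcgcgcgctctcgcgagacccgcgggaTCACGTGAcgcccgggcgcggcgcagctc
IGF2R (chr6:159968832-159969081, + strand): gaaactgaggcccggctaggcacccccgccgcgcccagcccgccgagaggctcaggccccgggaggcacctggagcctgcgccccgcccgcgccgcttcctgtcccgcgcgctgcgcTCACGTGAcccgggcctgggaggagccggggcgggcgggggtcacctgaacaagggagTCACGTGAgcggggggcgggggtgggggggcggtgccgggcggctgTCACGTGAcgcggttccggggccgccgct
GAA (chr17:80101331-80101580, + strand): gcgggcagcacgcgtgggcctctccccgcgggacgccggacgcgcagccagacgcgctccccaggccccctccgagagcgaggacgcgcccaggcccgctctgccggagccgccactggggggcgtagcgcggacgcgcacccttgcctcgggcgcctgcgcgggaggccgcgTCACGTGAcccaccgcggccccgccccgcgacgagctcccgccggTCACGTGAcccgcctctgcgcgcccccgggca
CTSA (chr20:45891291-45891317, + strand): gTCACGTGgcgccggagtTCACGTGAc

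MCOLN1 held 2 copies of TCACGTGA, starting 42 and 15 bases before the start, and GAA held 2, at 77 and 32 bases. IGF2R held 3, at 133, 75 and 29 bases, while LAMP1 held 4 copies of TCACGTG and, at 29 bases, 1 of TCACGTGA in the bases shown. Of the 8 genes with TCACGTGA, 6 rose and 0 fell in SUDS3 knockdown, with a median log2 fold change of 0.31. The 2 that did not pass were GAA at -0.05 and CLN3 at 0.30, and of the 6 the call on GALNS ended when any of 8 libraries was left out. Of the 32 without it, 14 rose and 10 fell, with a median of 0.03. In PHF12 knockdown 3 of the 8 rose (CTSA, LAMP1 and GNPTG) and 0 fell, with a median of 0.15, while 6 of the 32 rose and 10 fell, with a median of -0.06. The shorter motifs were also in genes that fell. Of the 13 genes with TCACGTG, 9 rose and 1 fell in SUDS3 knockdown and 4 rose and 2 fell in PHF12 knockdown. Of the 14 with CACGTG, 10 rose and 1 fell in SUDS3 knockdown and 4 rose and 2 fell in PHF12 knockdown. The genes that fell were ARSB in both knockdowns (-1.06 and -0.58) and NEU1 in PHF12 knockdown (-1.34). Of all genes tested, with or without a motif, 19.6% rose and 19.2% fell in SUDS3 knockdown. In PHF12 knockdown 14.8% rose and 17.1% fell. Calls were not counted separately for all tested genes that carry these motifs, so the split may not be particular to lysosomal genes. Genes without a promoter window are left out, and their motifs are unknown. Among these, HEXA, LGMN, PSAP, ASAH1, LAMP2, CTSB, MANBA, SGSH and ARSA rose in SUDS3 knockdown, HGSNAT fell and NAGLU did not pass. The split thus lacks many genes that rose, and the median of all 51 was 0.17 in SUDS3 knockdown. These counts are a description of a small set and were not tested.

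**Figure D3:**
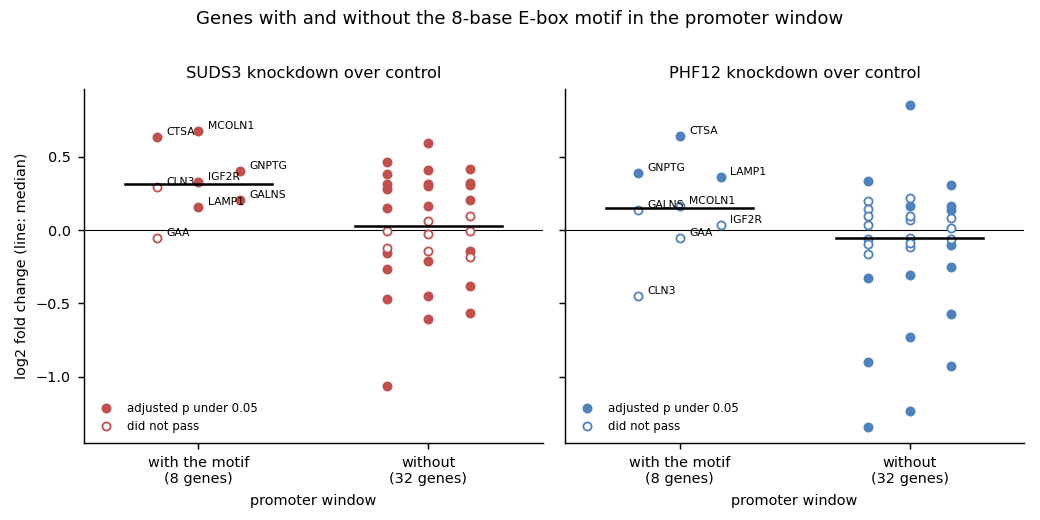
Log2 fold change over control (y axis) of the 40 genes with a promoter window, split into the 8 with TCACGTGA and the 32 without, in SUDS3 knockdown (left) and PHF12 knockdown (right). Filled points passed an adjusted p of 0.05 and lines are medians, at 0.31 and 0.03 in SUDS3 knockdown and at 0.15 and -0.06 in PHF12 knockdown.

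Among the 10 proteases and peptidases, 5 rose in SUDS3 knockdown (CTSA, TPP1, CTSD, LGMN and CTSB), 3 fell (CTSZ, CTSC and CTSH) and 2 did not pass. In PHF12 knockdown 2 rose (CTSA and CTSD), 3 fell (CTSC, CTSH and LGMN) and 5 did not pass. The group's median log2 fold change was 0.13 in SUDS3 knockdown and 0.07 in PHF12 knockdown. CTSA (ENSG00000064601) encodes cathepsin A, the carboxypeptidase that also protects the sialidase NEU1 and the galactosidase GLB1 from degradation. It had 109, 109 and 105 CPM in SUDS3 knockdown, 112, 103 and 109 CPM in PHF12 knockdown and 73.3, 69.3 and 65.3 CPM in control libraries. Both knockdowns lay above every control library and overlapped each other, at 0.64 ± 0.05 (SE) on the log2 scale in SUDS3 knockdown and 0.64 ± 0.05 in PHF12 knockdown (edgeR adjusted p = 1.63e-13 and 1.18e-13). CTSA overlaps NEURL2 and PLTP on the opposite strand, and no source used here states how strand was treated in counting. CTSC (ENSG00000109861), the dipeptidyl peptidase that activates serine proteases of immune granules, had 39.4, 38.7 and 37.9 CPM in SUDS3 knockdown, 20.4, 22.1 and 21.5 CPM in PHF12 knockdown and 51.7, 54.3 and 44.6 CPM in control libraries. The 3 groups did not overlap, and CTSC fell by 0.38 ± 0.07 on the log2 scale in SUDS3 knockdown and by 1.24 ± 0.07 in PHF12 knockdown (edgeR adjusted p = 2.02e-05 and 7.58e-17). CTSH, an aminopeptidase, had 24.0, 24.9 and 23.6 CPM in SUDS3 knockdown, 14.5, 15.7 and 15.8 CPM in PHF12 knockdown and 29.8, 27.9 and 29.7 CPM in control libraries. It was lowest in PHF12 knockdown and intermediate in SUDS3 knockdown, with falls of 0.93 ± 0.08 and 0.27 ± 0.08 on the log2 scale (edgeR adjusted p = 4.57e-12 and 0.00481). CTSZ, a carboxypeptidase, had 8.99, 9.01 and 8.73 CPM in SUDS3 knockdown, 18.1, 14.9 and 13.0 CPM in PHF12 knockdown and 14.3, 12.0 and 13.2 CPM in control libraries. Only its SUDS3 knockdown libraries lay apart from the controls, where CTSZ fell by 0.56 ± 0.11 on the log2 scale (edgeR adjusted p = 0.00013). The log2 fold changes of the others in SUDS3 knockdown were 0.42 for the tripeptidyl peptidase TPP1, 0.31 for the aspartic protease CTSD, 0.19 for the asparaginyl endopeptidase LGMN and 0.17 for the cysteine protease CTSB. In PHF12 knockdown LGMN fell by 0.29 and CTSD rose by 0.17 on the log2 scale. CTSF and CTSL, both cysteine proteases, passed in neither knockdown. The CTSB call in SUDS3 knockdown ended once SUDS3 knockdown replicate 1, or control replicate 3, was left out (edgeR adjusted p = 0.0611 to 0.147), and its log2 value moved to 0.10 without control replicate 3. The CTSD call in PHF12 knockdown ended once PHF12 knockdown replicate 1, or control replicate 2 or 3, was left out (edgeR adjusted p = 0.0516 to 0.121), and in limma on TPM (adjusted p = 0.103).

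Of the 13 glycosidases, 5 rose in SUDS3 knockdown (MAN2B1, NEU1, MANBA, GLB1 and HEXA), 3 fell (GALC, GLA and FUCA2) and 5 did not pass. In PHF12 knockdown 2 rose (GLA and HEXA), 3 fell (NEU1, NAGLU and FUCA2) and 8 did not pass. The median log2 fold change was -0.03 in SUDS3 knockdown and -0.05 in PHF12 knockdown. NEU1 (ENSG00000204386, chr6:31857659-31862906), the sialidase that removes sialic acid from glycoproteins and glycolipids, had 71.3, 76.8 and 74.0 CPM in SUDS3 knockdown, 22.5, 23.2 and 26.2 CPM in PHF12 knockdown and 59.9, 59.0 and 63.7 CPM in control libraries. The 3 groups did not overlap, with SUDS3 knockdown highest and PHF12 knockdown lowest. NEU1 rose by 0.28 ± 0.06 on the log2 scale in SUDS3 knockdown and fell by 1.34 ± 0.06 in PHF12 knockdown, which left 39.4% of the control level (edgeR adjusted p = 0.000112 and 1.15e-19). GLA (ENSG00000102393, chrX:101397803-101408012), the galactosidase that degrades globotriaosylceramide, had 181, 178 and 191 CPM in SUDS3 knockdown, 324, 318 and 319 CPM in PHF12 knockdown and 253, 252 and 257 CPM in control libraries. Its groups did not overlap either, in the other order: GLA fell by 0.47 ± 0.03 in SUDS3 knockdown and rose by 0.34 ± 0.03 in PHF12 knockdown on the log2 scale (edgeR adjusted p = 3.25e-14 and 1.37e-10). GALC, which degrades galactosylceramide, had 3.12, 2.09 and 3.04 CPM in SUDS3 knockdown, 3.99, 4.27 and 4.54 CPM in PHF12 knockdown and 3.93, 4.76 and 3.80 CPM in control libraries. It fell by 0.60 ± 0.19 on the log2 scale in SUDS3 knockdown (edgeR adjusted p = 0.0118) and did not pass in PHF12 knockdown. That call ended without control replicate 2 (-0.50, edgeR adjusted p = 0.0815) and without SUDS3 knockdown replicate 2 (-0.43, edgeR adjusted p = 0.112). In SUDS3 knockdown the log2 fold change was 0.46 for the mannosidase MAN2B1, 0.22 for the mannosidase MANBA, 0.15 for the galactosidase GLB1, 0.15 for the hexosaminidase subunit HEXA and -0.45 for the fucosidase FUCA2. In PHF12 knockdown it was 0.31 for HEXA, -0.21 for the heparan sulfate hydrolase NAGLU and -0.10 for FUCA2. The glycogen-degrading GAA, the glucuronidase GUSB, the iduronidase IDUA and the fucosidase FUCA1 passed in neither. In SUDS3 knockdown the HEXA call ended once SUDS3 knockdown replicate 1, or control replicate 2 or 3, was left out (edgeR adjusted p = 0.0501 to 0.0598) and under upper-quartile scaling (edgeR adjusted p = 0.0636). The GLB1 call there ended once SUDS3 knockdown replicate 2, or control replicate 3, was left out (edgeR adjusted p = 0.058 to 0.0754). The FUCA2 call in PHF12 knockdown ended without any library but SUDS3 knockdown replicate 3 (edgeR adjusted p = 0.0535 to 0.103), under upper-quartile scaling (-0.06, edgeR adjusted p = 0.221), with no filter on low counts (edgeR adjusted p = 0.117) and in limma on TPM (adjusted p = 0.0648). The NAGLU call in PHF12 knockdown, at an edgeR adjusted p of 0.0494, ended without control replicate 1 or 2, without PHF12 knockdown replicate 2 or 3, and without SUDS3 knockdown replicate 1, at edgeR adjusted p-values of 0.0589 to 0.177. It also ended in DESeq2 (adjusted p = 0.0707), under upper-quartile scaling (edgeR adjusted p = 0.118) and in limma on TPM (adjusted p = 0.158).

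Of the 5 sulfatases, 3 rose in SUDS3 knockdown (ARSA, GALNS and SGSH), 1 fell (ARSB) and 1 did not pass (IDS). In PHF12 knockdown 1 rose (IDS), 1 fell (ARSB) and 3 did not pass. ARSB (ENSG00000113273), which removes sulfate from dermatan and chondroitin sulfate, had 8.26, 8.01 and 12.6 CPM in SUDS3 knockdown, 12.6, 14.1 and 13.5 CPM in PHF12 knockdown and 21.3, 17.9 and 20.8 CPM in control libraries. Every library of either knockdown lay below every control, with 47.9% of the control level left in SUDS3 knockdown and 67.1% left in PHF12 knockdown. The log2 fold changes were -1.06 ± 0.12 and -0.58 ± 0.12 (edgeR adjusted p = 5.82e-09 and 0.000174). IDS (ENSG00000010404, chrX:149476990-149521096), which removes sulfate from iduronic acid, had 53.2, 56.9 and 51.7 CPM in SUDS3 knockdown, 97.4, 98.5 and 97.5 CPM in PHF12 knockdown and 57.0, 49.7 and 55.8 CPM in control libraries. The PHF12 knockdown libraries stood above all of the others, and IDS rose there by 0.85 ± 0.05 on the log2 scale (edgeR adjusted p = 1.09e-15). IDS overlaps the genes AC244197.2 and AC244197.3 on its own strand and has the pseudogene IDSP1. Its counts can therefore include reads of these or lack reads shared with them. ARSA, which desulfates sulfatide, had 20.2, 22.2 and 21.2 CPM in SUDS3 knockdown, 13.7, 13.3 and 15.2 CPM in PHF12 knockdown and 17.0, 17.2 and 13.6 CPM in control libraries. It rose by 0.41 ± 0.09 on the log2 scale in SUDS3 knockdown (edgeR adjusted p = 0.000656), while the PHF12 knockdown and control libraries overlapped. GALNS and SGSH, which act on keratan sulfate and heparan sulfate, had log2 fold changes of 0.21 and 0.20 in SUDS3 knockdown, with edgeR adjusted p-values of 0.0455 and 0.0454. The GALNS call ended when any library but control replicate 1 was left out (edgeR adjusted p = 0.0501 to 0.172). The SGSH call ended without any of the 3 SUDS3 knockdown libraries, PHF12 knockdown replicate 3, or control replicate 2 or 3 (edgeR adjusted p = 0.0501 to 0.303), and its log2 value moved to 0.12 without control replicate 2. Upper-quartile scaling and limma on TPM ended both calls as well (adjusted p = 0.089 and 0.0689 for GALNS, 0.0904 and 0.105 for SGSH), and leaving low counts unfiltered ended that of GALNS (edgeR adjusted p = 0.0623).

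Of the 7 lipid hydrolases, thioesterases and activators, 5 rose in SUDS3 knockdown (SMPD1, ASAH1, GM2A, PSAP and LIPA), 1 fell (PPT1) and 1 did not pass (PPT2). In PHF12 knockdown 2 rose (PPT1 and PSAP), 3 fell (ASAH1, LIPA and GM2A) and 2 did not pass. ASAH1, the acid ceramidase, which AC124242.1 overlaps on the opposite strand, had 54.0, 49.7 and 50.7 CPM in SUDS3 knockdown, 24.5, 26.3 and 29.1 CPM in PHF12 knockdown and 44.1, 43.5 and 45.4 CPM in control libraries. No groups overlapped, and ASAH1 rose by 0.22 ± 0.06 in SUDS3 knockdown and fell by 0.73 ± 0.06 in PHF12 knockdown on the log2 scale (edgeR adjusted p = 0.00565 and 1.42e-11). Its rise ended without SUDS3 knockdown replicate 1 (0.18, edgeR adjusted p = 0.0564). LIPA, the acid lipase that hydrolyses cholesteryl esters and triglycerides, had 126, 126 and 121 CPM in SUDS3 knockdown, 88.3, 88.4 and 88.3 CPM in PHF12 knockdown and 115, 112 and 106 CPM in control libraries. It too was highest in SUDS3 knockdown and lowest in PHF12 knockdown, with log2 fold changes of 0.17 ± 0.04 and -0.33 ± 0.04 (edgeR adjusted p = 0.00157 and 8.03e-08); it overlaps IFIT1 and IFIT3 on the opposite strand. SMPD1, the acid sphingomyelinase, had 18.3, 17.4 and 17.2 CPM in SUDS3 knockdown, 15.6, 15.3 and 15.0 CPM in PHF12 knockdown and 16.1, 12.2 and 14.8 CPM in control libraries. It rose by 0.30 ± 0.10 on the log2 scale in SUDS3 knockdown (edgeR adjusted p = 0.0131), a call that ended without control replicate 2 (0.19, edgeR adjusted p = 0.151) or SUDS3 knockdown replicate 1 (0.27, edgeR adjusted p = 0.0573). GM2A, the activator that presents gangliosides to hexosaminidase, had log2 fold changes of 0.21 in SUDS3 knockdown and -0.25 in PHF12 knockdown, and its rise ended without SUDS3 knockdown replicate 1 (edgeR adjusted p = 0.0886). PSAP, the precursor of the saposins, rose by 0.19 and 0.24 on the log2 scale in SUDS3 and PHF12 knockdown. PPT1, which removes fatty acids from cysteines of proteins, fell by 0.14 in SUDS3 knockdown and rose by 0.31 in PHF12 knockdown; it overlaps CAP1 on the opposite strand.

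**Figure D4:**
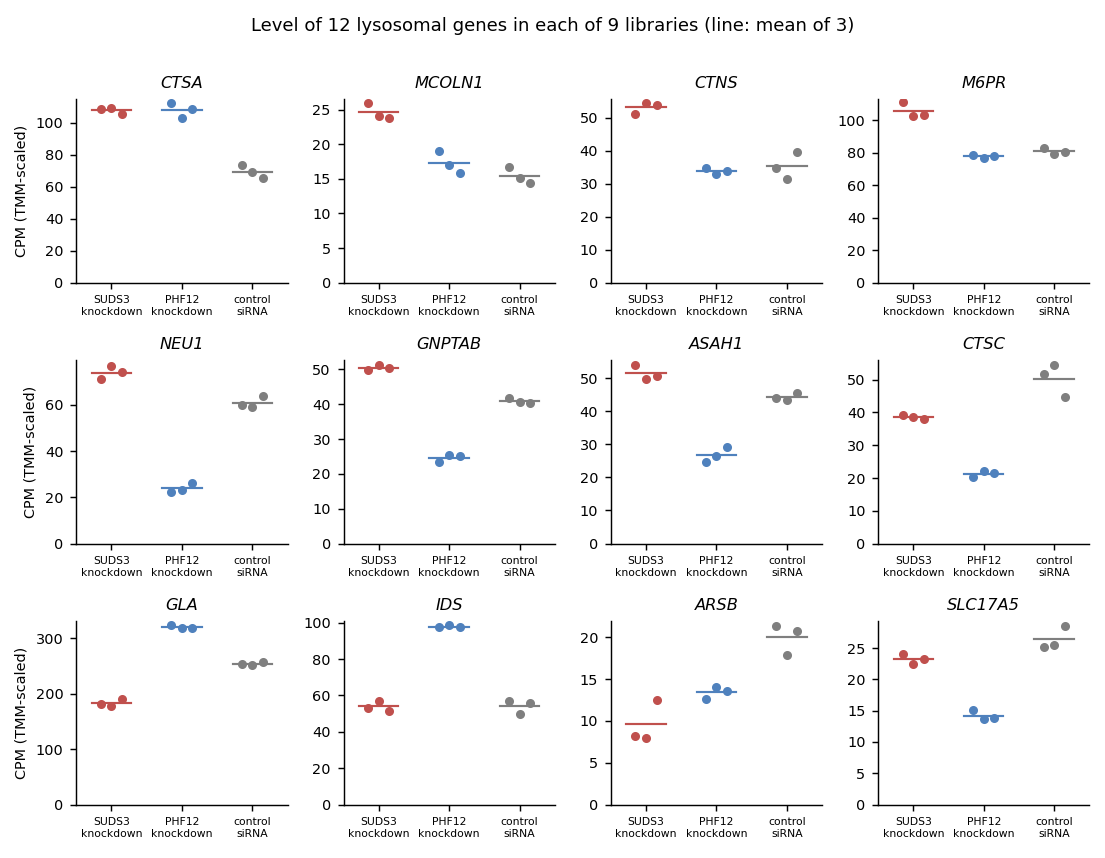
CPM (y axes, from 0, TMM-scaled) of 12 genes in each of 9 libraries, with SUDS3 knockdown in red, PHF12 knockdown in blue and control in grey from left to right; points are libraries and lines are means of 3. CTSA is raised in both knockdowns, NEU1, GNPTAB and ASAH1 are highest in SUDS3 knockdown and lowest in PHF12 knockdown, and GLA is the other way round.

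Of the 12 membrane proteins and transporters (counting the soluble cholesterol carrier NPC2), 7 rose in SUDS3 knockdown, 3 fell and 2 did not pass, and in PHF12 knockdown 3 rose, 2 fell and 7 did not pass. The median log2 fold change was 0.23 in SUDS3 knockdown and -0.03 in PHF12 knockdown. MCOLN1 (ENSG00000090674), the cation channel that releases calcium from lysosomes, had 26.0, 24.1 and 23.8 CPM in SUDS3 knockdown, 19.1, 17.0 and 15.8 CPM in PHF12 knockdown and 16.6, 15.1 and 14.5 CPM in control libraries. All SUDS3 knockdown libraries lay above all others, at 0.68 ± 0.09 on the log2 scale over control (edgeR adjusted p = 1.08e-07), while the PHF12 knockdown and control libraries overlapped. MCOLN1 overlaps PNPLA6 on the same strand. CTNS (ENSG00000040531), the cystine exporter, which AC027796.4 overlaps on the opposite strand, had 51.1, 54.6 and 53.8 CPM in SUDS3 knockdown, 34.7, 32.8 and 34.0 CPM in PHF12 knockdown and 34.6, 31.5 and 39.7 CPM in control libraries. Again only SUDS3 knockdown stood apart, at 0.59 ± 0.07 on the log2 scale (edgeR adjusted p = 5.24e-09). SLC17A5 (ENSG00000119899), the sialic acid exporter, had 24.1, 22.5 and 23.2 CPM in SUDS3 knockdown, 15.1, 13.6 and 13.8 CPM in PHF12 knockdown and 25.2, 25.5 and 28.6 CPM in control libraries. It fell by 0.90 ± 0.08 on the log2 scale in PHF12 knockdown (edgeR adjusted p = 4.11e-11). In SUDS3 knockdown its log2 fold change of -0.18 did not pass (edgeR adjusted p = 0.0733). LAMP1, a glycoprotein that lines the membrane, had 129, 125 and 124 CPM in SUDS3 knockdown, 142, 148 and 144 CPM in PHF12 knockdown and 116, 114 and 108 CPM in control libraries. Its 3 groups did not overlap, and its log2 fold changes were 0.16 ± 0.04 and 0.36 ± 0.04 in SUDS3 and PHF12 knockdown (edgeR adjusted p = 0.00142 and 2.41e-09). The cholesterol exporter NPC1 rose by 0.41 and 0.14 on the log2 scale in SUDS3 and PHF12 knockdown, and NPC2 rose by 0.32 and 0.16. LAMP2 and CD63 rose in SUDS3 knockdown, by 0.17 and 0.33 on the log2 scale, and did not pass in PHF12 knockdown. SCARB2, the receptor that brings glucocerebrosidase to lysosomes, fell by 0.21 and 0.30 on the log2 scale in SUDS3 and PHF12 knockdown. The acetyltransferase HGSNAT and TMEM192 fell by 0.23 and 0.16 in SUDS3 knockdown. CLN3 passed in neither comparison. In SUDS3 knockdown the HGSNAT call ended once SUDS3 knockdown replicate 3, or control replicate 1, was left out (edgeR adjusted p = 0.0547 to 0.0714), and the TMEM192 call ended once SUDS3 knockdown replicate 1 or 3, or control replicate 3, was left out (edgeR adjusted p = 0.0668 to 0.125). In PHF12 knockdown the NPC1 call ended once PHF12 knockdown replicate 1 or 3, or control replicate 2 or 3, was left out (edgeR adjusted p = 0.0792 to 0.142), and the NPC2 call ended once PHF12 knockdown replicate 3, or control replicate 1 or 3, was left out (edgeR adjusted p = 0.0865 to 0.129). Limma on TPM also ended the calls of HGSNAT and TMEM192 in SUDS3 knockdown (adjusted p = 0.0764 and 0.0964) and of NPC1 in PHF12 knockdown (adjusted p = 0.066).

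All 4 genes of mannose 6-phosphate tagging and sorting rose in SUDS3 knockdown, while in PHF12 knockdown 1 rose (GNPTG), 1 fell (GNPTAB) and 2 did not pass. Their summed level was 372, 369 and 368 CPM in SUDS3 knockdown, 288, 272 and 282 CPM in PHF12 knockdown and 302, 285 and 285 CPM in control libraries, so the SUDS3 knockdown sums lay above all others. The sums of proteases and of membrane proteins were also highest there. Glycosidase sums were lowest there, at 773.0, 784.9 and 772.9 CPM. They were 882.2, 845.5 and 877.5 CPM in PHF12 knockdown and 853.6, 853.4 and 844.5 CPM in control libraries. Sulfatase sums were highest in PHF12 knockdown, and those of the lipid hydrolase group overlapped between the knockdowns. GNPTAB (ENSG00000111670, chr12:101745497-101830938), the catalytic subunit that starts the tag, had 49.8, 51.3 and 50.4 CPM in SUDS3 knockdown, 23.5, 25.4 and 25.0 CPM in PHF12 knockdown and 41.7, 40.7 and 40.2 CPM in control libraries. Its groups did not overlap, with a rise of 0.31 ± 0.06 in SUDS3 knockdown and a fall of 0.73 ± 0.06 in PHF12 knockdown on the log2 scale (edgeR adjusted p = 7.52e-05 and 4.65e-12). Its partner subunit GNPTG had 24.5, 27.7 and 24.4 CPM in SUDS3 knockdown, 25.7, 25.1 and 25.2 CPM in PHF12 knockdown and 22.4, 18.1 and 17.5 CPM in control libraries. Both knockdowns lay above the controls, at log2 fold changes of 0.40 ± 0.09 and 0.39 ± 0.09 (edgeR adjusted p = 0.000255 and 0.000475), and UNKL overlaps GNPTG on the opposite strand. M6PR, the cation-dependent receptor, had 111, 102 and 103 CPM in SUDS3 knockdown, 78.2, 76.5 and 78.2 CPM in PHF12 knockdown and 82.8, 79.1 and 80.5 CPM in control libraries. Its SUDS3 knockdown libraries were above all others by 0.38 ± 0.05 on the log2 scale over control (edgeR adjusted p = 1.26e-08), and PHC1 overlaps it on the opposite strand. The cation-independent receptor IGF2R, which AL353625.1 overlaps on the same strand, rose by 0.33 ± 0.04 on the log2 scale in SUDS3 knockdown (edgeR adjusted p = 9.63e-09), with 186, 188 and 190.2 CPM there, 161, 145 and 153 CPM in PHF12 knockdown and 155, 147 and 147 CPM in control libraries.

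Set directly against PHF12 knockdown, SUDS3 knockdown had 23 of the 51 genes higher, 10 lower and 18 that did not pass. Of all genes tested, 22.7% were higher and 21.1% lower, against 45.1% and 19.6% of these genes. Upper-quartile scaling gave 20 higher and 12 lower, so that 62.5% of the calls were higher against 69.7% under TMM, while over all genes the share was 41.2% against 51.8%. The largest positive log2 differences were 1.63 ± 0.06 for NEU1, 1.04 ± 0.06 for GNPTAB and 0.95 ± 0.06 for ASAH1 (edgeR adjusted p = 2.13e-22, 1.47e-16 and 6.37e-15). The largest negative ones were -0.86 ± 0.05 for IDS, -0.81 ± 0.03 for GLA and -0.78 ± 0.11 for CTSZ (edgeR adjusted p = 4.18e-16, 2.91e-21 and 3.74e-07). NEU1 and GNPTAB, a hydrolase and the enzyme that tags hydrolases, were thus 3.09-fold and 2.05-fold higher in SUDS3 knockdown than in PHF12 knockdown. CTSA was at -0.00 ± 0.05, where the difference did not pass (edgeR adjusted p = 0.984). The lower level of GALC in SUDS3 knockdown (-0.64) ended without SUDS3 knockdown replicate 2 (-0.47, edgeR adjusted p = 0.0677). Small differences of CTSD, NPC2, GUSB and HEXA between the knockdowns, at log2 values of 0.14, 0.15, 0.15 and -0.17, also ended without single libraries, among them PHF12 knockdown replicate 1 for HEXA (edgeR adjusted p = 0.0651) and PHF12 knockdown replicate 2 for the other 3 (edgeR adjusted p = 0.189, 0.094 and 0.169). CTSD ended too without PHF12 knockdown replicate 3 and SUDS3 knockdown replicates 1 and 2, NPC2 without PHF12 knockdown replicate 1 and each SUDS3 knockdown replicate, and GUSB without SUDS3 knockdown replicates 2 and 3. Leaving out SUDS3 knockdown replicate 1 moved CTSD to 0.09. Upper-quartile scaling ended 3 of these calls and moved them to 0.08 for CTSD, 0.09 for NPC2 and 0.08 for GUSB (edgeR adjusted p = 0.261, 0.22 and 0.242), and limma on TPM ended those of CTSD and GUSB (adjusted p = 0.111 and 0.0572).

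**Figure D5:**
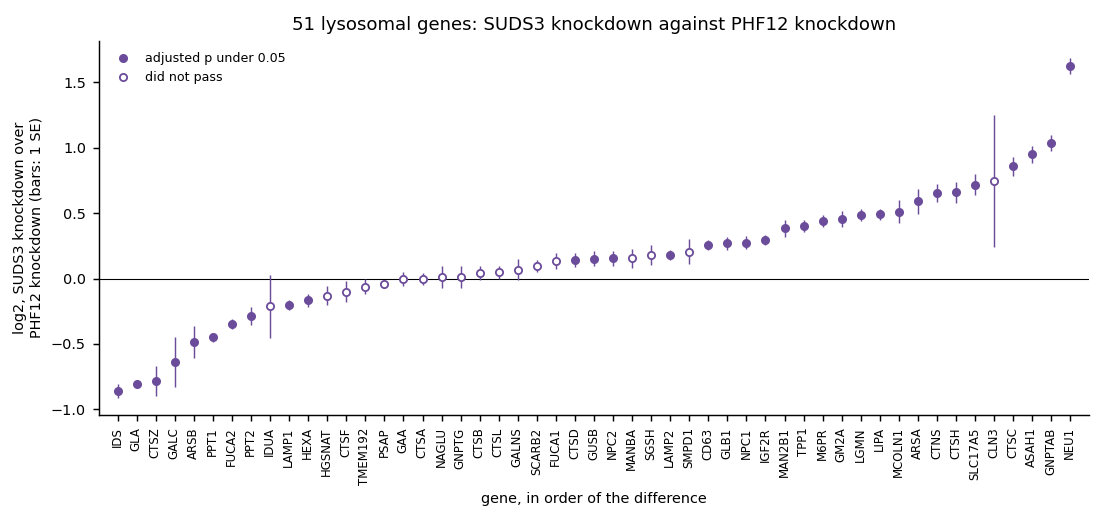
Log2 difference of SUDS3 knockdown over PHF12 knockdown (y axis) for each of the 51 genes in order of the difference, with bars of 1 SE. Filled points passed an adjusted p of 0.05: 23 lie above 0, up to 1.63 for NEU1, and 10 lie below, down to -0.86 for IDS.

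Among 52 tested genes of a list of other lysosomal genes, 19 rose and 13 fell in SUDS3 knockdown (36.5% and 25.0%), beside 19.6% and 19.2% of all genes tested. In PHF12 knockdown 11 of the 52 rose and 10 fell (21.2% and 19.2%), beside 14.8% and 17.1% of all genes. The median log2 fold changes of the 52 were 0.07 and 0.01. The progranulin gene GRN rose by 0.43 in SUDS3 knockdown and by 0.36 in PHF12 knockdown on the log2 scale (edgeR adjusted p = 1.55e-09 and 8.53e-08). TMEM106B fell by 0.76 in SUDS3 knockdown, and LAPTM4A rose by 0.34 in PHF12 knockdown. OSTM1, the partner subunit of a lysosomal chloride transporter, had 37.5, 32.4 and 38.0 CPM in SUDS3 knockdown, 10.8, 12.3 and 12.5 CPM in PHF12 knockdown and 37.8, 38.5 and 36.4 CPM in control libraries, a fall of 1.67 ± 0.08 on the log2 scale in PHF12 knockdown (edgeR adjusted p = 6.07e-19). Of the E-box binding factors, TFEB and MITF rose by 0.72 and 0.45 on the log2 scale in SUDS3 knockdown (edgeR adjusted p = 5.89e-05 and 0.000557), where TFE3 was at 0.05 and did not pass. In PHF12 knockdown TFE3 fell by 0.32 (edgeR adjusted p = 3.91e-05), TFEB and MITF were at -0.21 and -0.26 and did not pass, and TFEC had too few counts to test.

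An siRNA can lower transcripts other than its target through short matches in their 3′ UTRs, and an earlier scan of these same fold changes had picked a hexamer for each knockdown, so that what follows is no independent evidence. AATCAC was in the longest annotated 3′ UTR of 16 of the 51 genes (31.4%), beside 30.7% of the 13770 tested genes with a 3′ UTR. In PHF12 knockdown 7 of those 16 fell (43.8%) and 4 rose, whereas 6 of the 35 without it fell (17.1%) and 7 rose. Over all genes, 38.2% of those with AATCAC fell and 13.6% of those without, while 11.1% and 21.8% rose. The lysosomal genes' shares of rises, 25% with AATCAC and 20% without, were in the other order. TACATT was in 19 of the 51 (37.3%), beside 40.9% of all genes. In SUDS3 knockdown 8 of the 19 rose and 7 fell, whereas 21 of the 32 without it rose and 4 fell, with median log2 fold changes of -0.00 and 0.18. These are rises of 42.1% with TACATT and 65.6% without, beside 19.9% and 28.3% over all genes, where 31.4% of those with it fell and 17.2% of those without. AATCAC was also in IDS and PPT1, which rose in PHF12 knockdown by 0.85 and 0.31 on the log2 scale. It was absent from CTSH and GNPTAB, which fell there by 0.93 and 0.73. TACATT was also in IGF2R, which rose in SUDS3 knockdown, and absent from ARSB, which fell there. A longer 3′ UTR has more room for a hexamer. Among the 51 genes its length ran from 6 bases for GLA, with neither hexamer, to 9050 for TMEM192, with both. The splits were not adjusted for length, so they may reflect it, and the part of these matches in the results was not tested. The CTSC and GALC sites lie before the 3′ ends of their genes, at chr11:88293592 and chr14:87837820. Transcripts that run to those ends may therefore lack them. Sites are shown, in RNA strand orientation as DNA letters with the hexamer in capitals (GRCh38), for 2 genes that fell in PHF12 knockdown and 2 that fell in SUDS3 knockdown.
NEU1 (chr6:31859575-31859604, - strand): cagccttggcaaAATCACcttccctttacc
CTSC (chr11:88321963-88321992, - strand): cgtgcatatcaaAATCACaatgagatacca
GALC (chr14:87933014-87933036, - strand): attaaaactgtcTACATTtacaa
FUCA2 (chr6:143494940-143494969, - strand): cttaggctacacTACATTtataaaaaaaag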

How the data were processed

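RNA of HEK293T cells was sequenced as stranded poly-A libraries, 3 each for SUDS3 knockdown, PHF12 knockdown and control, per the labels' protocols. Per the submitters' processing notes, Trimmomatic 0.36, HISAT2 2.1.0, HTSeq and build GRCh38 were used. The authors deposited whole-number counts for 58735 genes, and 96.1% of the counts above 0 are multiples of 4, so 1 fragment appears to stand for 4 counts. The authors also deposited a table of TPM for 58734 genes. The gene lengths that its values imply had a Pearson r of 0.0001 with annotated exon lengths over 11338 genes, so TPM was used only in an alternative within genes.

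GENCODE 29 gave symbols, coordinates and exon lengths. The counts entered edgeR 4.0.16 under R 4.3.3 (filterByExpr with a minimum count of 10, TMM scaling, robust quasi-likelihood F-tests, 1 mean per group, Benjamini-Hochberg adjustment over 18088 genes), and SE is the absolute log2 fold change divided by the square root of F. The fit was tested on simulated data. Alternatives were DESeq2 1.42.0, upper-quartile scaling, no filter on low counts, a replicate block, counts divided by 4, limma 3.58.1 on log2(TPM + 1), and leaving out each of the 9 libraries. No pair of libraries was identical.

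The members and lists were chosen with earlier results of these data known. Values in each library are given for the 2 members per role and knockdown with the largest change that passed and did not overlap the controls, the 3 largest each way between knockdowns, and the targets. The other lysosomal genes named come from the 4 with the smallest p in each knockdown, some of which are not reported here, and every tested MiT/TFE factor is named. The library values of IGF2R and OSTM1, and the genes whose sequences are shown, were picked once their values had been seen. Of the members, 6 overlap a tested gene on the same strand, 20 overlap one on the opposite strand and 6 have namesake pseudogenes. Their counts can therefore include other reads or lack shared ones.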

Additional observations from a re-analysis of the deposited data

Results flagged for a closer look

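Genes were singled out where they passed the test in opposite directions in SUDS3 and PHF12 knockdown and the difference between the knockdowns also passed (edgeR adjusted p under 0.05). How many of all genes tested met this rule was not counted, so opposite changes may not be particular to lysosomal genes. Higher in SUDS3 knockdown than in PHF12 knockdown were NEU1 by 1.63, GNPTAB by 1.04, ASAH1 by 0.95, LIPA by 0.49, LGMN by 0.48 and GM2A by 0.46 on the log2 scale. Each of these 6 rose in SUDS3 knockdown and fell in PHF12 knockdown. GLA and PPT1 fell in SUDS3 knockdown and rose in PHF12 knockdown, with log2 differences of -0.81 and -0.45. Of these calls, the rises of ASAH1 and GM2A in SUDS3 knockdown ended without SUDS3 knockdown replicate 1, at log2 values of 0.18 and 0.15.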

How the results depend on the processing

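Of 97 calls on the 51 genes over the 3 comparisons, 76 passed in all 15 alternatives, 21 ended in at least 1 and 0 reversed, while 47 values that did not pass changed sign. Of the 40 calls in SUDS3 knockdown 29 passed throughout, of the 24 in PHF12 knockdown 19 did, and of the 33 between the knockdowns 28 did. Leaving out single libraries gave 22 to 29 risen and 9 to 12 fallen in SUDS3 knockdown, 9 to 12 and 11 to 14 in PHF12 knockdown, and 20 to 24 higher and 9 to 11 lower in SUDS3 knockdown against PHF12 knockdown. The other settings gave 26 to 29 and 9 to 13, 10 to 15 and 11 to 14, and 20 to 24 and 10 to 12.

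No clear pairing by replicate number was seen. Same-numbered libraries had correlations of -0.016 to 0.03 between their deviations from the group means, and differently numbered ones had -0.032 to 0.018. The correlations ran over all genes tested, low counts included, so a weak pairing could be missed. With a replicate block, 29 rose and 12 fell in SUDS3 knockdown, 12 rose and 14 fell in PHF12 knockdown, and 23 were higher and 10 lower in SUDS3 knockdown against PHF12 knockdown. Genes at few counts, such as CLN3, limit what can be called.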
